A study of Homo sapiens with 9 samples.

Results

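MEC1 cells that had spent 14 days in a bioprinted hydrogel scaffold were compared with MEC1 cells kept in conventional 2D culture, over 6 of the 9 RNAseq libraries of the series. MEC1 is an established B cell line derived from chronic lymphocytic leukemia (CLL), a cancer of mature B lymphocytes that circulate in blood and divide mainly inside lymphoid tissue. The 2D group (2D, 3 libraries) held MEC1 cells cultured in liquid medium, with no time point given. The day 14 group (3D_14d, 3 libraries) held MEC1 cells mixed with hydrogel, printed, crosslinked with calcium and harvested at day 14, and the 3 libraries harvested at day 7 (3D_7d) served only to show where day 14 differed from the earlier time point. All cells were described as the same single line, with no drug or genetic treatment stated in the labels. The sample titles all begin with MECPGK, and neither the labels nor the study's text explain the PGK part. RNA was taken from scaffolds with TRIzol, a DNase I treatment and then a column kit. RNA of 2D cultures came from the column kit alone, whose washes the study describes as including a DNase solution. Culture and extraction therefore changed together in every comparison with 2D and cannot be told apart. Nothing states that replicates came from separate cultures, so that p-values measure the spread between these libraries, which may be technical.

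Expression was read as CPM (counts scaled to the library total) after TMM scaling, and changes as log2 fold changes of 3D_14d against 2D with their standard errors (SE). A gene was called up-regulated or down-regulated when its adjusted p in edgeR's quasi-likelihood test (Benjamini-Hochberg over 13463 genes) was at most 0.05. Of the genes tested 19.0% were called up-regulated and 17.2% down-regulated, and these shares are the background for each group of genes below at day 14 against 2D. For counts at day 7 against 2D the background was 22.2% up-regulated and 21.2% down-regulated. From day 7 to day 14, 14.5% of all genes were higher and 13.6% were lower. At least 2-fold differences were found in 981 of the up-regulated and 1191 of the down-regulated genes, at least 4-fold differences in 178 and 254, and at least 16-fold differences in 13 and 19. The median change over all genes was 0.02, and the 3 day 14 libraries did not overlap the 3 libraries of 2D in 49.7% of the genes. Each of the 6 libraries held between 54662799 and 85968686 assigned reads. The day 14 libraries differed more among themselves than the others did: the median absolute log2 difference between replicates was 0.46, 0.44 and 0.31 at day 14, against 0.14 to 0.19 in 2D, and the 2 larger values both involved day 14 replicate 1. Short genes were relatively high in that library (median deviation of 0.31 from the day 14 mean in the shortest 20% of genes by length, against -0.15 in the longest 20%).

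B lymphocytes respond to antigen by dividing in germinal centres, where their antibody genes are edited, and some then mature into plasma cells that stop dividing and secrete antibody. Cells that leave the cycle lose the transcripts of the replication and mitosis machinery, which are expressed mainly in dividing cells. By the smallest p-values among protein-coding genes that changed at least 2-fold and whose groups did not overlap, the 8 leading up-regulated genes of day 14 against 2D included the 6 reported here, MPEG1, GNLY, ITM2C, GZMH, CPNE5 and JCHAIN, and the 8 leading down-regulated genes, picked in the same way from their p-values and therefore given as a description, were CDCA5, GINS2, CENPU, KAT2A, CENPJ, NUCB2, DLGAP5 and C20orf204.

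**Figure D1:**
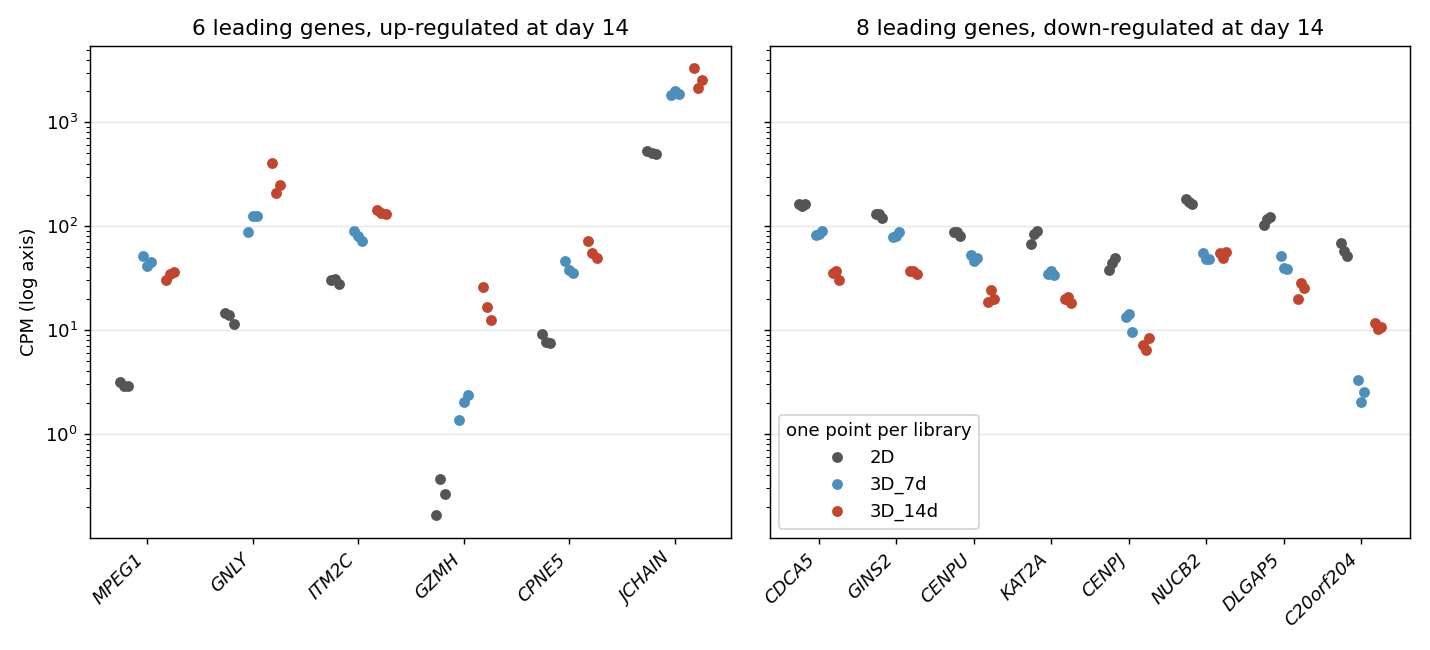
Expression in CPM on a log axis of 6 of the 8 leading genes that rose (left panel) and the 8 that fell (right panel), with 1 point per library and colours for 2D, 3D_7d and 3D_14d. The day 14 points lie apart from those of 2D in each gene because the choice of genes required it; C20orf204 was lowest at day 7 and GZMH was highest at day 14.

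MPEG1, which encodes perforin-2, a pore-forming protein of the endolysosome (GRCh38 chromosome 11, bases 59208510 to 59212951), had 3.13, 2.88 and 2.89 CPM in 2D and 30.3, 34.7 and 36.0 CPM at day 14 (log2 fold change 3.50 ± 0.17 (SE), adjusted p = 5.23e-07). Every day 14 library lay above every 2D library, which the choice of the leading genes required, and the day 14 values differed little from each other. JCHAIN, the joining chain of secreted IgM and IgA, had 526, 507 and 489 CPM in 2D and 3299, 2119.6 and 2528 CPM at day 14 (log2 fold change 2.39 ± 0.17 (SE), adjusted p = 3.59e-06). It was the most abundant of these 6 genes, and its highest value was in day 14 replicate 1. CPNE5, a copine that binds membrane phospholipids with calcium, changed by 2.85 (adjusted p = 3.29e-06), and ITM2C, an integral membrane protein, by 2.18 (adjusted p = 2.23e-06).

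A group of pore-forming and cytotoxic genes included 3 of the leaders. GZMH, a granzyme of cytotoxic lymphocytes (chromosome 14, bases 24606480 to 24609699), was close to the detection limit in 2D and had 0.165, 0.367 and 0.263 CPM in 2D and 25.8, 16.7 and 12.6 CPM at day 14 (log2 fold change 6.07 ± 0.41 (SE), adjusted p = 3.07e-06). GNLY, granulysin, had 14.5, 14.1 and 11.5 CPM in 2D and 408, 209 and 249 CPM at day 14 (log2 fold change 4.43 ± 0.26 (SE), adjusted p = 1.45e-06). Both were again highest in day 14 replicate 1, and both also exceeded their day 7 level (by 3.25 and 1.35 on the log2 scale, adjusted p = 0.000111 and 0.00166). Among the 13 members tested 6 were up-regulated and 2 were down-regulated, against 19.0% and 17.2% of all genes tested, and the median change was 0.03. CST7, an inhibitor of cathepsins in cytotoxic granules, had 54.1, 49.0 and 46.4 CPM in 2D and 29.9, 22.6 and 23.3 CPM at day 14 (log2 fold change -0.98 ± 0.16 (SE), adjusted p = 0.000618). GSDMD, the pore former of pyroptosis, had 94.1, 95.3 and 88.8 CPM in 2D and 35.2, 34.6 and 26.0 CPM at day 14 (log2 fold change -1.54 ± 0.17 (SE), adjusted p = 4.99e-05). The 2 decreases therefore stood beside the increases within 1 list. Markers of T and NK cells were examined as well. The NK markers GNLY, PRF1 and NKG7 also belong to the pore-forming and cytotoxic list, so that the 2 sets are not separate. Of 12 T cell markers 5 were tested, of which 3 were up-regulated and none down-regulated: the receptor constant genes TRAC (by 0.97), TRBC1 (by 0.93) and TRBC2 (by 0.93), all of which the 2D cells also expressed. Their summed level ranged from 724.5 to 813 CPM in 2D and from 995.6 to 1367 CPM at day 14, mostly TRAC, TRBC2 and LCK. CD3D was at 0 in all 6 libraries, and CD3E and CD2 stayed below 1.01 CPM. Of 8 NK markers 5 were tested, of which 3 were up-regulated and none down-regulated: GNLY, PRF1 (by 0.46) and KLRD1, a lectin-like receptor of NK cells, which had 0.363, 0.875 and 0.421 CPM in 2D and 6.04, 4.09 and 3.99 CPM at day 14 (a change of 3.07). KLRF1 (by 1.00) and NKG7 (by -0.62) were not called. GZMH and KLRD1 lay below 1 CPM in every 2D library and were tested only because scaffold libraries passed the filter on expression. A decrease could hardly be called for them, so that their place in these counts was partly set by that filter. The summed level of the 8 NK markers ranged from 762.6 to 824.3 CPM in 2D and from 1166 to 1483 CPM at day 14, mostly PRF1 and GNLY. NCAM1, NCR1 and FCGR3A stayed below 0.30 CPM. The part of other cell types in these increases was not tested. Markers of monocytes summed to at most 1.55 CPM in every library. In bulk RNA, fewer cells of a type and less RNA per cell cannot be told apart.

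Of the 29 gene lists described, that of mitosis had the lowest median change. Of its 71 genes of mitosis and the kinetochore, 70 were down-regulated at day 14, none was up-regulated, and the median change was -1.64. MKI67, the proliferation antigen that coats mitotic chromosomes, had 247, 252 and 271 CPM in 2D and 34.3, 49.8 and 44.9 CPM at day 14 (log2 fold change -2.58 ± 0.29 (SE), adjusted p = 4.99e-05). CDK1, the kinase that drives entry into mitosis, had 254, 252 and 238 CPM in 2D and 61.0, 80.0 and 81.6 CPM at day 14 (log2 fold change -1.74 ± 0.18 (SE), adjusted p = 2.61e-05). CDC20, which activates the anaphase-promoting complex, had 244, 245 and 228 CPM in 2D and 89.7, 123 and 72.6 CPM at day 14 (log2 fold change -1.33 ± 0.19 (SE), adjusted p = 0.000242). All 3 fell in every day 14 library, MKI67 the most. PLK1, the mitotic polo kinase, had 196, 189 and 193 CPM in 2D and 84.0, 109.9 and 77.1 CPM at day 14 (log2 fold change -1.09 ± 0.19 (SE), adjusted p = 0.000968). CDCA5, sororin, which protects sister chromatid cohesion, had 163, 157 and 163 CPM in 2D and 35.2, 36.9 and 30.1 CPM at day 14 (log2 fold change -2.24 ± 0.14 (SE), adjusted p = 1.45e-06). DLGAP5, a spindle protein, changed by -2.22 (adjusted p = 7.99e-06). CENPJ, a centriole protein that was not in this list, changed by -2.58 (adjusted p = 7.68e-06). At day 7 60 of the 71 were already down-regulated against the same 2D libraries, with a median of -1.06 (21.2% of all genes were down-regulated and 22.2% up-regulated in that comparison), and 31 were lower at day 14 than at day 7, with 1 higher (13.6% and 14.5% of all genes). Both time points share the 2D libraries, so that their changes against 2D are not independent of each other.

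Promoters of these genes are shown because the members moved together. The RefSeq promoter table of GRCh38.p14 (250 bases before to 50 bases after a start) held 59 of the 71 genes. The cell-cycle homology region, searched as TTTGAA on both strands, was present in 38 of them (64.4%), against 13.7% of the 9441 tested genes with a window. The CCAAT box was present in 43 (72.9%), against 43.5%. All 38 genes with TTTGAA and 20 of the 21 without it were down-regulated, so that its presence did not divide the list. In the stretches below, the 120 bases before the start are written 5′ to 3′ on the strand of the gene, with TTTGAA and CCAAT (or its reverse complement ATTGG) in capitals; in MKI67 the last 2 motifs overlap.
PLK1, chr16:23678769-23678888, plus strand: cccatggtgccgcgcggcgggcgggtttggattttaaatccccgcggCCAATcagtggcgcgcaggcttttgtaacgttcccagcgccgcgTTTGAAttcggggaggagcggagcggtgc
CDC20, chr1:43358861-43358980, plus strand: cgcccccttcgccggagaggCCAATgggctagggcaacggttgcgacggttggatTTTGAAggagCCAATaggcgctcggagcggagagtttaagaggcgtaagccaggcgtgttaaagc
MKI67, chr10:128126424-128126543, minus strand: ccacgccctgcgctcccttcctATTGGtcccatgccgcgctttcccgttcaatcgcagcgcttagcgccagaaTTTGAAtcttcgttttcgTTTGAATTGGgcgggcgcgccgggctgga
Counted from the start, TTTGAA begins 29 bases upstream in PLK1, 65 in CDC20, and 47 and 29 in MKI67. A match describes the letters in the window and is not evidence of binding.

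DNA replication genes fell between day 7 and day 14. Of 61 genes 46 were down-regulated at day 14 and 2 were up-regulated, with a median of -1.10, whereas at day 7 21 were up-regulated and 7 down-regulated, with a median of 0.19. The difference between the time points was itself tested, and 48 of the 61 were lower at day 14 than at day 7 and 2 were higher (13.6% and 14.5% of all genes). GINS2, a subunit of the replicative helicase, had 132, 132 and 121 CPM in 2D and 36.8, 36.7 and 34.6 CPM at day 14 (log2 fold change -1.83 ± 0.13 (SE), adjusted p = 3.59e-06). CDC45, another helicase subunit, had 65.2, 67.6 and 71.1 CPM in 2D and 15.7, 30.2 and 24.0 CPM at day 14 (log2 fold change -1.54 ± 0.20 (SE), adjusted p = 0.00015). MCM2, part of the ring that loads onto origins, had 239, 271 and 256 CPM in 2D and 62.0, 175 and 103 CPM at day 14 (log2 fold change -1.17 ± 0.27 (SE), adjusted p = 0.00523). The day 14 values of CDC45 and MCM2 were lowest in replicate 1 and highest in replicate 2, but none reached the 2D range. PCNA, the sliding clamp of the polymerases, changed by -0.75 (adjusted p = 0.00093) at day 14, from a mean change of 0.35 at day 7. POLE4, a small accessory subunit of polymerase epsilon, went the other way with 119, 107 and 103 CPM in 2D and 359, 168 and 164 CPM at day 14 (log2 fold change 1.07 ± 0.25 (SE), adjusted p = 0.00542). Its highest value was in day 14 replicate 1, and the other day 14 libraries, at 168 and 164 CPM, also lay above every 2D library. The call was kept in all 19 alternatives, with changes from 0.60 to 1.27. E2F1, the factor that switches on this group in late G1, had 17.9, 12.7 and 13.6 CPM in 2D and 4.56, 7.59 and 13.3 CPM at day 14 (log2 fold change -0.80 ± 0.37 (SE), adjusted p = 0.112), and its groups overlapped. The E2F site, searched as TTGGCGC on both strands, was found in 16 of 52 promoters of this group (30.8%). Among all tested genes with a window the share was 6.16%. Of those 16 genes 12 were down-regulated and none was up-regulated. Of the 36 without the site 27 were down-regulated and 2 up-regulated, so that its presence did not divide the list.

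Genes for the supply and repair of DNA were lower as well. Of 16 genes that supply deoxynucleotides 10 were down-regulated and none up-regulated (median -0.75). RRM2, the regulated subunit of ribonucleotide reductase, had 367, 357 and 377 CPM in 2D and 83.0, 146 and 98.2 CPM at day 14 (log2 fold change -1.75 ± 0.22 (SE), adjusted p = 0.000109). TYMS, thymidylate synthase, changed by -1.29 (adjusted p = 9.13e-05). In homologous recombination and Fanconi repair 21 of 28 genes were down-regulated and none up-regulated (median -1.58). BRCA2, a mediator of homologous recombination, had 36.8, 43.8 and 47.7 CPM in 2D and 4.50, 5.04 and 4.69 CPM at day 14 (log2 fold change -3.17 ± 0.33 (SE), adjusted p = 3.26e-05), among the largest decreases named here. FANCD2, the target of the Fanconi ubiquitin ligase, changed by -1.60 (adjusted p = 4.04e-05), and EME1, a subunit of a structure-specific endonuclease, by -2.52 (adjusted p = 9.93e-06). In this group 20 members were lower at day 14 than at day 7 and none was higher (13.6% and 14.5% of all genes). Among 28 genes of DNA methylation and Polycomb, 9 were down-regulated and 2 up-regulated (median -0.38); the number up-regulated was 1 when 2D replicate 1, 2 or 3 was left out, with no filter on expression and under scaling by total counts alone. The maintenance methyltransferase DNMT1 changed by -0.70 (adjusted p = 0.00139), EZH2, the methyltransferase of Polycomb complex 2, by -1.03 (adjusted p = 0.000385), and CBX5, heterochromatin protein 1 alpha, by -1.10 (adjusted p = 8.81e-05). BMI1, of Polycomb complex 1, changed in the opposite direction, by 0.92 (adjusted p = 0.00225).

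Genes that restrain division did not move as a group. Of 36 such genes 7 were up-regulated and 9 down-regulated, with a median of 0.22. BTG2, an antiproliferative gene, had 99.5, 101 and 102 CPM in 2D and 180.3, 251 and 266 CPM at day 14 (log2 fold change 1.20 ± 0.16 (SE), adjusted p = 0.000169). MXD4, a partner of MAX that opposes MYC, had 33.3, 32.9 and 26.2 CPM in 2D and 129.9, 102 and 101 CPM at day 14 (log2 fold change 1.85 ± 0.22 (SE), adjusted p = 8.09e-05), and its relative MXD3 went the other way with a change of -1.32 (adjusted p = 0.000485). CDKN1B, the inhibitor p27, had 11.6, 11.3 and 12.2 CPM in 2D and 7.67, 6.28 and 5.22 CPM at day 14 (log2 fold change -0.87 ± 0.25 (SE), adjusted p = 0.0174). CDKN1A, the inhibitor p21, had 291, 281 and 256 CPM in 2D and 287, 274 and 321 CPM at day 14 (log2 fold change 0.09 ± 0.14 (SE), adjusted p = 0.644), so that p27 was lower and p21 was not called. The call of CDKN1B was lost without 2D replicate 3 or without day 14 replicate 3, and the number up-regulated fell from 7 to 4 without 2D replicate 1, without 2D replicate 2 and under scaling by total counts alone. Of 9 MYC partners and PIM kinases tested 1 was up-regulated and 3 were down-regulated, with a median of 0.08, and the number up-regulated was 2 or 3 in 5 of 19 alternatives. PIM2, a survival kinase of B cells, had 391, 398 and 380.2 CPM in 2D and 655, 818 and 712 CPM at day 14 (log2 fold change 0.90 ± 0.14 (SE), adjusted p = 0.000446).

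Immunoglobulin transcripts made up a higher share of reads in each day 14 library than in any 2D library. They made up 1.31%, 1.29% and 1.24% of assigned reads in 2D and 7.13%, 5.79% and 4.99% at day 14 (exact permutation test, two-sided p = 0.1, the smallest that 3 against 3 libraries allow). The groups did not overlap. The share of ribosomal protein genes was 4.88%, 4.22% and 4.15% in 2D and 3.35%, 1.91% and 2.31% at day 14 (p = 0.1 in the same exact permutation test). The mitochondrial share overlapped, from 2.30% to 2.83% in 2D and from 1.62% to 2.82% at day 14 (p = 0.3 in that exact permutation test). The 50 most abundant genes of each library held 18.9 ± 0.387% of reads in 2D and 24.5 ± 1.82% at day 14 (SD, n = 3).

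**Figure D2:**
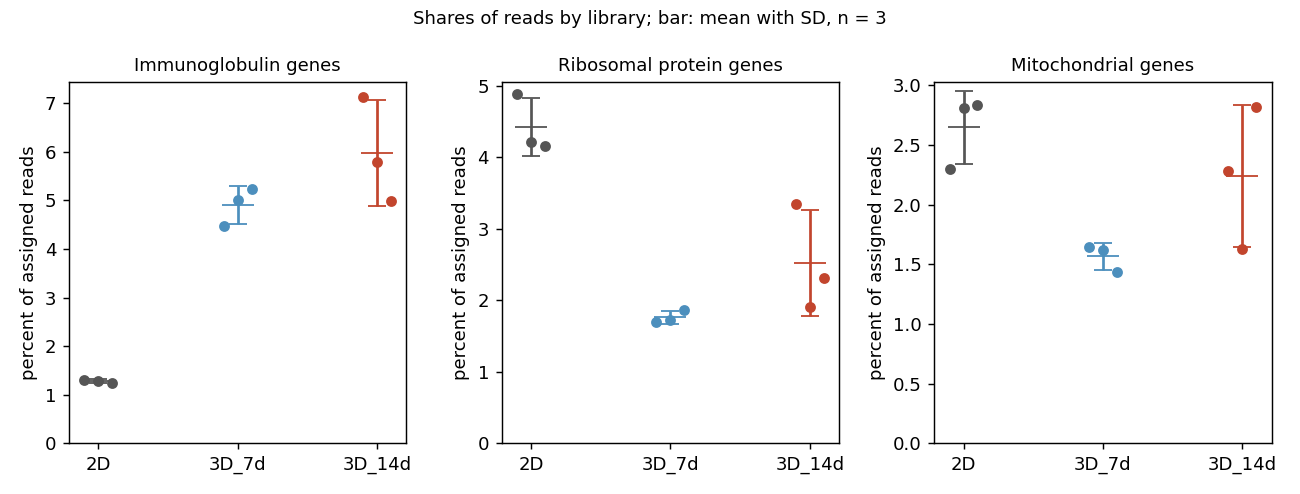
Percent of assigned reads in immunoglobulin, ribosomal protein and mitochondrial genes, with 1 point per library and the mean with SD of 3 libraries in each group. The immunoglobulin share at day 14 lay between 4.99% and 7.13%, above the 1.24% to 1.31% of 2D.

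Of 10 immunoglobulin constant and joining chain genes tested, 9 were up-regulated and none down-regulated, with a median of 2.68. IGHM, the constant region of the mu heavy chain, had 7212, 7235 and 6879 CPM in 2D and 30390.2, 31128 and 17509.5 CPM at day 14 (log2 fold change 1.89 ± 0.20 (SE), adjusted p = 3.21e-05). IGKC, the kappa light chain constant region, had 2434, 2225 and 1967 CPM in 2D and 27284, 15977 and 16230.4 CPM at day 14 (log2 fold change 3.17 ± 0.22 (SE), adjusted p = 3.37e-06). IGKV4-1, a kappa variable gene, had 1951, 1769 and 1587 CPM in 2D and 20952, 13047 and 12985 CPM at day 14 (log2 fold change 3.15 ± 0.21 (SE), adjusted p = 3.07e-06). These were the 3 largest gains in mean CPM of any gene, followed by B2M and CD74. IGHG3, whose reads may be shared with its near-identical gamma relatives, had 22.9, 25.1 and 21.1 CPM in 2D and 176, 173 and 154 CPM at day 14 (log2 fold change 2.86 ± 0.17 (SE), adjusted p = 1.45e-06). From day 7 to day 14, 3 of the 10 genes were higher and none was lower (14.5% and 13.6% of all genes), with a median of 0.49. JCHAIN was among the 3, with a change of 0.48 (adjusted p = 0.0414). IGHM changed by 0.16 and IGKC by 0.51, and neither was called (adjusted p = 0.572 and 0.0787).

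The regulators of plasma cell and germinal centre fate did not move in 1 direction. Of 23 tested, 8 were up-regulated (34.8%) and 4 down-regulated (17.4%), with a median of 0.19. Over all genes tested the shares were 19.0% and 17.2%. XBP1, the factor that expands the secretory pathway, had 616, 604 and 581 CPM in 2D and 638, 717 and 617 CPM at day 14 (log2 fold change 0.13 ± 0.13 (SE), adjusted p = 0.457). IRF4, which controls plasma cell entry, had 349.6, 387 and 421 CPM in 2D and 301, 409 and 469.7 CPM at day 14 (log2 fold change 0.03 ± 0.19 (SE), adjusted p = 0.917). MZB1, an endoplasmic reticulum cochaperone of IgM assembly, had 331, 298 and 298 CPM in 2D and 193, 132 and 119 CPM at day 14 (log2 fold change -1.06 ± 0.18 (SE), adjusted p = 0.000669). PRDM1, which encodes Blimp-1, had 19.7, 22.8 and 17.5 CPM in 2D and 21.2, 39.6 and 30.1 CPM at day 14 (log2 fold change 0.60 ± 0.22 (SE), adjusted p = 0.047). Its groups overlapped, and its call was lost under 12 of 19 alternatives. IRF4 was up-regulated at day 7 (1.07) and lower at day 14 than at day 7 (-1.04, adjusted p = 0.00213). The number of up-regulated members fell from 8 to 5 without 2D replicate 1 or without 2D replicate 2.

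Genes of the B lineage stayed expressed and were mostly higher. Of 29 B lineage genes 16 were up-regulated and 1 was down-regulated, with a median of 0.67, and the summed level of 10 defining B markers ranged from 3815 to 3876 CPM in 2D and from 5200 to 6023 CPM at day 14. CD180, a Toll-like receptor homolog of B cells, had 4.32, 3.52 and 4.76 CPM in 2D and 22.7, 45.7 and 32.5 CPM at day 14 (log2 fold change 3.00 ± 0.26 (SE), adjusted p = 9.93e-06). FCER2, which encodes CD23, had 130.3, 119 and 111 CPM in 2D and 197, 193 and 182 CPM at day 14 (log2 fold change 0.67 ± 0.16 (SE), adjusted p = 0.00625). CD22, an inhibitory coreceptor, was the member that fell, with 537, 562 and 528 CPM in 2D and 240.4, 405 and 352 CPM at day 14 (log2 fold change -0.71 ± 0.20 (SE), adjusted p = 0.014). MS4A1, which encodes CD20, had a change of 0.35 (adjusted p = 0.0859) and PAX5, the B cell commitment factor, of 0.38 (adjusted p = 0.0689), and neither was called.

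The B cell receptor signals through kinases and adaptors that many CLL drugs target. Of 28 components tested, 8 were up-regulated and 2 down-regulated, with a median of 0.19. The proximal kinase SYK had 146, 146 and 151 CPM in 2D and 177, 206 and 159 CPM at day 14 (log2 fold change 0.29 ± 0.14 (SE), adjusted p = 0.113). BTK, the target of ibrutinib, had 92.3, 96.2 and 90.2 CPM in 2D and 113, 139 and 121 CPM at day 14 (log2 fold change 0.42 ± 0.13 (SE), adjusted p = 0.022). Its call was lost under 6 of 19 alternatives. FCGR2B, the inhibitory Fc receptor of B cells, had 93.5, 94.8 and 86.3 CPM in 2D and 239, 226 and 173 CPM at day 14 (log2 fold change 1.22 ± 0.15 (SE), adjusted p = 8.09e-05), and was higher at day 14 than at day 7 by 0.90. ITPR2, a calcium release channel, changed by -0.85 (adjusted p = 0.0128). The number up-regulated ranged from 4 to 13 over the runs that left out 1 library, 4 without 2D replicate 1, 5 without 2D replicate 2 or 2D replicate 3 and 13 without day 14 replicate 1, and was 2 under scaling by total counts alone, 3 with no filter on expression and 13 with the replicate block and the length trend removed.

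Type I interferons switch on antiviral genes that carry an interferon-stimulated response element. Of 54 interferon-stimulated genes, listed with or without that element, 27 were up-regulated at day 14 and 1 was down-regulated, with a median of 0.60. At day 7, 10 were up-regulated and 5 down-regulated (22.2% and 21.2% of all genes), with a median of -0.0005. The difference between day 14 and day 7 was tested, and 20 members were higher at day 14, none was lower and 34 were not called (14.5% of all genes were higher and 13.6% lower). The day 7 libraries were uneven: the median of the group relative to 2D (log2 CPM) was 0.47 in day 7 replicate 1, near the 0.52, 0.56 and 0.62 of day 14, and -0.12 and -0.32 in the other two. IFIT1, which binds viral RNA, had 24.95, 23.96 and 23.65 CPM in 2D and 119.1, 121.3 and 107 CPM at day 14 (log2 fold change 2.26 ± 0.35 (SE), adjusted p = 0.000427). ISG15, a ubiquitin-like modifier, had 506, 416 and 394 CPM in 2D and 1881, 815 and 896 CPM at day 14 (log2 fold change 1.45 ± 0.34 (SE), adjusted p = 0.00587). IFI6, a mitochondrial antiapoptotic protein, had 91.3, 83.6 and 78.5 CPM in 2D and 283, 160.3 and 151 CPM at day 14 (log2 fold change 1.23 ± 0.34 (SE), adjusted p = 0.0145). ISG15 and IFI6 were both higher in day 14 replicate 1 than in the other day 14 libraries, while IFIT1 was even across them; the call of IFI6 was lost without 2D replicate 3. IRF7, which amplifies interferon production, had 299.6, 288 and 265 CPM in 2D and 639, 545 and 592 CPM at day 14 (log2 fold change 1.06 ± 0.18 (SE), adjusted p = 0.000712), with little change at day 7 (-0.03). BST2, tetherin, had 401, 349 and 320.2 CPM in 2D and 1424, 845 and 785 CPM at day 14 (log2 fold change 1.51 ± 0.21 (SE), adjusted p = 0.000221). MX1, an antiviral GTPase, changed by 1.13 (adjusted p = 0.000456). XAF1, the member that fell, changed by -0.85 (adjusted p = 0.033) and was not called in 4 of 19 alternatives.

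The response element was searched as GAAA, any 2 bases and GAAA on both strands. It was found in 27 of 40 genes of the group with a promoter window (67.5%), against 4.31% of tested genes with a window. Of those 27 genes 14 were up-regulated and none was down-regulated, and of the 13 without it 6 were up-regulated and 1 down-regulated. The stretches run from 150 to 71 bases before the start, 5′ to 3′ on the strand of the gene, with matches on either strand in capitals; matches overlap in ISG15 and BST2, and the matches of IFIT1 are on the opposite strand.
ISG15, chr1:1013347-1013426, plus strand: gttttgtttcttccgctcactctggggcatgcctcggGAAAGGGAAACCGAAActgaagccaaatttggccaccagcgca
IFIT1, chr10:89392473-89392552, plus strand: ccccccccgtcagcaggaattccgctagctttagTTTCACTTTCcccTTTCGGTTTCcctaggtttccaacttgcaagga
BST2, chr19:17405701-17405780, minus strand: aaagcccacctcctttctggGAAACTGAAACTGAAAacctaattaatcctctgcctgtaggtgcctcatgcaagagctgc

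**Figure D3:**
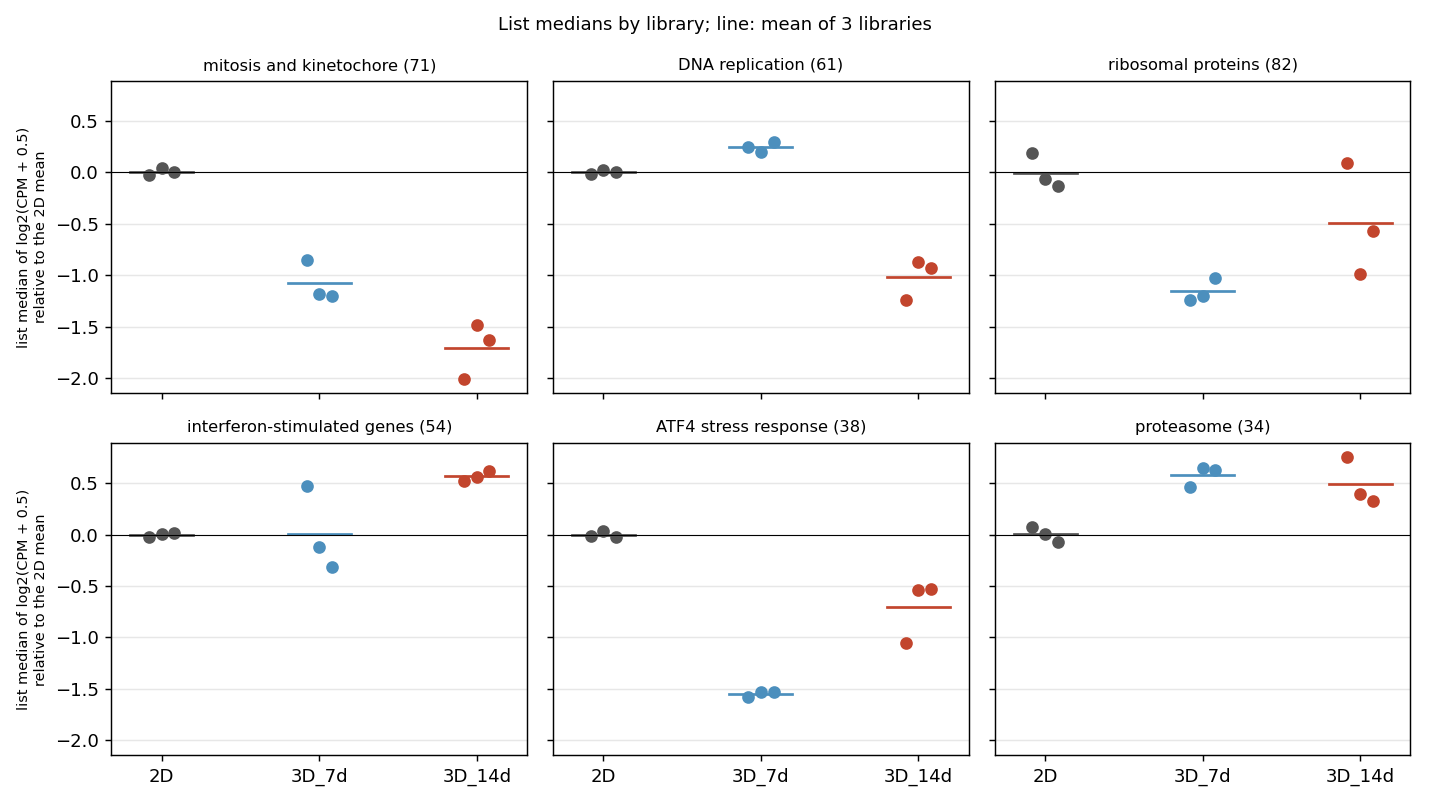
Median over the members of 6 gene lists of log2(CPM + 0.5) relative to the mean of the 2D libraries, with 1 point per library and a line at the mean of 3 libraries. Mitosis genes lay at -2.01 to -1.48 at day 14, replication genes at -1.24 to -0.87 with day 7 above 2D, and the ribosomal protein median of day 14 replicate 1 (0.0928) lay within the 2D range while the other day 14 libraries lay at -0.99 and -0.57.

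Class I molecules present peptides made by the proteasome, and class II molecules present peptides from endosomes. Of 21 class I genes 12 were up-regulated and none down-regulated, with a median of 0.54. B2M, the light chain of class I, had 15359.5, 14044 and 13218 CPM in 2D and 23734, 17573 and 20318 CPM at day 14 (log2 fold change 0.53 ± 0.14 (SE), adjusted p = 0.0123). TAPBP, tapasin, which loads peptide, had 397, 407 and 391 CPM in 2D and 596, 1035 and 869.8 CPM at day 14 (log2 fold change 1.07 ± 0.18 (SE), adjusted p = 0.000694). HLA genes are closely related and reads of 1 may be counted for another. The number up-regulated was 7 without 2D replicate 2, 4 without 2D replicate 3 and 5 with no filter on expression, and the call of B2M was lost in these 3 cases. Of 19 class II genes 5 were up-regulated and 1 was down-regulated, with a median of 0.23. HLA-DRA had 3889.8, 3736 and 3469 CPM in 2D and 4859, 4778 and 3906 CPM at day 14 (log2 fold change 0.29 ± 0.14 (SE), adjusted p = 0.114). CD74, the invariant chain, had 8897, 8089.8 and 7086 CPM in 2D and 14766, 13730.1 and 14309.6 CPM at day 14 (log2 fold change 0.83 ± 0.14 (SE), adjusted p = 0.000677). CIITA, the master regulator of class II, had 95.2, 119.9 and 129 CPM in 2D and 66.0, 136 and 110.2 CPM at day 14 (log2 fold change -0.14 ± 0.23 (SE), adjusted p = 0.661), and changed by -0.88 from day 7 to day 14. The number up-regulated was 10 without day 14 replicate 3. The proteasome, which feeds class I, had 19 of 34 genes up-regulated and none down-regulated (median 0.53), or 10 up-regulated without 2D replicate 3. PSMD6, a regulatory particle subunit, changed by 1.19 (adjusted p = 0.000181) and PSMD1 by 0.86 (adjusted p = 0.00177).

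Chemokines and homing receptors were more often up-regulated than genes at large. Of 27 tested, 14 were up-regulated (51.9%) and 5 down-regulated (18.5%), with a median of 0.67. Over all genes tested the shares were 19.0% and 17.2%, so that the decreases were near the background. Under scaling by total counts alone 9 were up-regulated. CCL4, a chemokine secreted by activated B cells, had 383, 352 and 318 CPM in 2D and 958, 591 and 767 CPM at day 14 (log2 fold change 1.14 ± 0.17 (SE), adjusted p = 0.000345). It was higher at day 14 than at day 7, by 1.28 (adjusted p = 0.000411). CCL3, its neighbour, had 303, 250.5 and 235 CPM in 2D and 536, 279 and 472 CPM at day 14 (log2 fold change 0.71 ± 0.21 (SE), adjusted p = 0.0206), with overlapping groups, and its call was lost under 6 of 19 alternatives. CXCR4, the receptor that retains CLL cells in tissue by binding CXCL12, had 28.2, 26.2 and 24.9 CPM in 2D and 9.02, 12.3 and 13.3 CPM at day 14 (log2 fold change -1.19 ± 0.19 (SE), adjusted p = 0.000571). CCR7, which guides cells to lymph nodes, had 345, 346 and 302 CPM in 2D and 363, 543 and 386 CPM at day 14 (log2 fold change 0.38 ± 0.25 (SE), adjusted p = 0.252). In NF-kB and TNF signalling 10 of 43 genes were up-regulated (23.3%) and 7 down-regulated (16.3%), near the 19.0% and 17.2% of all genes tested (median 0.10). NFKBIA, the inhibitor that NF-kB itself induces, changed by 0.59 (adjusted p = 0.00376), and LTA, lymphotoxin alpha, had 223, 200.4 and 177 CPM in 2D and 727, 556 and 474 CPM at day 14 (log2 fold change 1.55 ± 0.17 (SE), adjusted p = 5.11e-05). TNFRSF14, a receptor for lymphotoxin family ligands, fell by 1.16 on the log2 scale. The number up-regulated in that list was 5 without 2D replicate 2, 3 without 2D replicate 3, and 6 under scaling by total counts alone and with no filter.

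Among apoptosis genes increases were more frequent than over all genes, and decreases were not. Of 30 tested, 11 were up-regulated (36.7%) and 4 down-regulated (13.3%), with a median of 0.19. Over all genes tested the shares were 19.0% and 17.2%. BCL2L1, which encodes the survival protein BCL-XL, had 8.44, 7.74 and 7.22 CPM in 2D and 17.8, 17.2 and 23.6 CPM at day 14 (log2 fold change 1.32 ± 0.19 (SE), adjusted p = 0.000276). MCL1, another survival protein, had 80.4, 90.1 and 87.1 CPM in 2D and 130.2, 142 and 181 CPM at day 14 (log2 fold change 0.82 ± 0.15 (SE), adjusted p = 0.00108). BAX, the pore-forming death effector, had 91.8, 80.9 and 73.8 CPM in 2D and 205, 148 and 147 CPM at day 14 (log2 fold change 1.02 ± 0.16 (SE), adjusted p = 0.000439). The survival genes BCL2L1 and MCL1 and the death gene BAX were therefore higher in the same libraries, which does not describe the list as a whole.

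ATF4 is the transcription factor that lack of amino acids or unfolded protein induces, and its targets include amino acid synthesis and transport. Of 38 genes of this response 21 were down-regulated at day 14 and none up-regulated, with a median of -0.78; 31 were down-regulated at day 7, with a median of -1.56, and 26 were higher at day 14 than at day 7, with none lower. ASS1, argininosuccinate synthase, had 96.2, 96.3 and 93.0 CPM in 2D and 30.2, 45.8 and 36.8 CPM at day 14, and 2.10 CPM on average at day 7 (log2 fold change -1.34 ± 0.20 (SE), adjusted p = 0.000319 against 2D). CHAC1, a glutathione-degrading enzyme, had 64.4, 65.9 and 67.4 CPM in 2D and 31.3, 40.9 and 53.1 CPM at day 14, and 2.90 CPM on average at day 7 (log2 fold change -0.66 ± 0.19 (SE), adjusted p = 0.0174). DDIT3, which encodes CHOP, had 154, 150.2 and 162 CPM in 2D and 132, 103 and 84.8 CPM at day 14 (log2 fold change -0.55 ± 0.16 (SE), adjusted p = 0.0179). ATF4 itself had 623, 613 and 617 CPM in 2D and 632, 548 and 476 CPM at day 14 (log2 fold change -0.16 ± 0.14 (SE), adjusted p = 0.375), with a day 7 mean of 201 CPM. For these genes the day 14 libraries stood between the 2D and the day 7 level, apart from ATF4, whose day 14 values overlapped 2D. MTHFD2, a mitochondrial folate enzyme, stayed low at both times (-1.44 (adjusted p = 5.24e-05) at day 14). The calls of CHAC1 and DDIT3 were lost without 2D replicate 3. Genes of hypoxia and glycolysis were mostly not called, with 4 up-regulated (11.1%) and 5 down-regulated (13.9%) of 36 (median -0.22). Both shares lay below the 19.0% and 17.2% of all genes tested. VEGFA, the angiogenic factor, had 99.4, 102 and 105 CPM in 2D and 54.3, 118 and 85.5 CPM at day 14 (log2 fold change -0.25 ± 0.29 (SE), adjusted p = 0.54), with overlapping groups, and ADM, adrenomedullin, had 3.15, 3.22 and 2.92 CPM in 2D and 5.06, 6.64 and 8.26 CPM at day 14 (log2 fold change 1.10 ± 0.30 (SE), adjusted p = 0.0117), a call lost without 2D replicate 3. Both were higher at day 14 than at day 7, by 2.38 and 4.12. LDHA, which makes lactate, had 2884, 2969.8 and 2714 CPM in 2D and 1831, 3257 and 1793 CPM at day 14 (log2 fold change -0.32 ± 0.25 (SE), adjusted p = 0.337). Leaving out 1 library moved the number up-regulated to 0 without 2D replicate 3, 2 without 2D replicate 2, 1 without day 14 replicate 2 and 7 without day 14 replicate 1, and the number down-regulated to 2 or 3 when 2D replicate 1, 2 or 3 was left out or without day 14 replicates 1 or 3 and 11 without day 14 replicate 2.

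Ribosomes and the factors that build them set how much protein a cell can make. Of 82 ribosomal protein genes 24 were down-regulated and none up-regulated, with a median of -0.42, against 68 at day 7 (median -1.16), and 38 were higher at day 14 than at day 7. RPS2 had 3264, 2956 and 2687 CPM in 2D and 1466, 1011 and 763 CPM at day 14 (log2 fold change -1.46 ± 0.21 (SE), adjusted p = 0.000231). RPL3 had 2235, 2099 and 1977 CPM in 2D and 1351, 1281 and 902 CPM at day 14 (log2 fold change -0.84 ± 0.16 (SE), adjusted p = 0.00159). EEF1A1, the elongation factor that delivers tRNA, had 2744, 2599 and 2663 CPM in 2D and 986, 1044 and 632 CPM at day 14 (log2 fold change -1.59 ± 0.18 (SE), adjusted p = 4.83e-05). All 3 were high in 2D and lower in each day 14 library. The count of down-regulated ribosomal protein genes rested on single libraries: it was 66 without day 14 replicate 1, 14 with 6 up-regulated without day 14 replicate 2, 14 without day 14 replicate 3, 13 without 2D replicate 1, 15 without 2D replicate 2, 14 in a fit of the 6 libraries alone, 45 under scaling by total counts alone and 40 with the replicate block and the length trend removed. These genes are short, and the deviation of short genes in day 14 replicate 1 moved with them. With the length trend alone removed, 1 was up-regulated and the number down-regulated did not move by over 1.5 times. The part of that deviation in the result was not tested further. Of 57 ribosome biogenesis genes 16 were down-regulated and 6 up-regulated (median -0.25), and 40 were lower at day 14 than at day 7, with 1 higher. NPM1, nucleophosmin, had 906, 862 and 818 CPM in 2D and 557, 467 and 340.5 CPM at day 14 (log2 fold change -0.92 ± 0.18 (SE), adjusted p = 0.00176). NCL, nucleolin, changed by -0.26 (adjusted p = 0.117) and was not called. TAF1D, a subunit of the RNA polymerase I initiation factor, changed by -1.93 (adjusted p = 1.67e-05), while UBTF, which also recruits that polymerase, rose by 0.66 (adjusted p = 0.00422). The number up-regulated was 1 to 3 in 10 of 19 alternatives, with 1 without 2D replicate 1, without 2D replicate 2 and under total counts alone.

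Small RNAs and the spread within day 14 set limits on single values. All 21 snoRNA genes called among 32 tested were down-regulated, with a median over the 32 of -1.62; these RNAs lack a poly(A) tail and lie in introns of host genes, whose unspliced reads cannot be separated from them. RNU5A-1, a spliceosomal RNA, had 247, 415 and 439 counts in 2D and 0, 0 and 1 at day 14, and the ratio of the scaled group sums was 778.5 (95% exact interval 139 to 30780 for counting error only). HBA1, alpha globin, had 1, 3 and 1 counts in 2D and 209, 111 and 206 at day 14, a ratio of 149 (63.4 to 460.1); its near-identical copy HBA2 may share reads, and HBB stayed at or below 0.45 CPM. RN7SL1, the signal recognition particle RNA, had 9.83, 7.44 and 6.69 CPM in 2D and 149, 23.5 and 81.8 CPM at day 14 (log2 fold change 3.41 ± 0.49 (SE), adjusted p = 0.000291), and was the least even at day 14 of genes at 20 CPM or more. IGHV4-34, an immunoglobulin variable gene, had 4.54, 4.58 and 5.16 CPM in 2D and 21.4, 18.6 and 97.4 CPM at day 14 (log2 fold change 3.27 ± 0.52 (SE), adjusted p = 0.000537), highest in replicate 3 and above every 2D library in all 3. LMNB1, lamin B1 of dividing cells, had 68.0, 93.2 and 66.8 CPM in 2D and 12.3, 55.1 and 39.4 CPM at day 14 (log2 fold change -1.09 ± 0.38 (SE), adjusted p = 0.0368). Its call was lost under 5 of 19 alternatives. PAN2, a deadenylase subunit, and LRIG1, a receptor regulator, were both low in day 14 replicate 1, with 37.3, 43.2 and 58.3 CPM in 2D and 6.76, 36.0 and 31.3 CPM at day 14, and 26.0, 26.4 and 28.3 CPM in 2D and 12.7, 51.1 and 30.3 CPM at day 14, respectively, and were not called.

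Lysosomes degrade material delivered by endocytosis and autophagy. Of 43 lysosome and autophagy genes 28 were up-regulated and 1 was down-regulated, with a median of 0.64, or 17 up-regulated without 2D replicate 3. LAMP1, the main lysosomal membrane protein, had 18.2, 20.3 and 13.8 CPM in 2D and 51.1, 40.6 and 56.1 CPM at day 14 (log2 fold change 1.5 ± 0.18 (SE), adjusted p = 8.42e-05). ATP6V0D1, a subunit of the proton pump, had 119, 108 and 97.0 CPM in 2D and 367, 310.3 and 277 CPM at day 14 (log2 fold change 1.56 ± 0.15 (SE), adjusted p = 1.78e-05). CTSD, cathepsin D, changed by 1.41 (adjusted p = 6.64e-05). These rose in every day 14 library. Of 80 nuclear genes of the respiratory chain 27 were up-regulated and 2 down-regulated (median 0.49). ATP5F1B, the catalytic subunit of ATP synthase, changed by 0.55 (adjusted p = 0.00985), a call lost without 2D replicate 3 and with no filter, and COX4I2, an isoform of cytochrome oxidase subunit 4, by 1.18 (adjusted p = 0.00256). The number up-regulated was 51 without day 14 replicate 2, 17 without day 14 replicate 1, 8 without 2D replicate 2, 7 without 2D replicate 3, 15 in a fit of the 6 libraries alone and 14 under scaling by total counts alone. Of 13 mitochondrially encoded genes 7 were down-regulated and none up-regulated (median -0.65), with 2 up-regulated without day 14 replicate 2. MT-CO3 had 1979, 2248 and 2024 CPM in 2D and 1271, 713 and 1167 CPM at day 14 (log2 fold change -0.99 ± 0.19 (SE), adjusted p = 0.0019), and the ribosomal RNA MT-RNR1 had 1134, 1309 and 1287 CPM in 2D and 399, 188 and 291 CPM at day 14 (log2 fold change -2.09 ± 0.25 (SE), adjusted p = 8.09e-05). Of 38 genes of cholesterol synthesis 15 were down-regulated and none up-regulated (median -0.43). INSIG1, the sterol sensor, had 493, 491 and 454 CPM in 2D and 169, 227 and 242 CPM at day 14 (log2 fold change -1.17 ± 0.16 (SE), adjusted p = 0.000162), and HSD17B7, an enzyme of the pathway, changed by -1.43 (adjusted p = 2.86e-05).

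Chaperones fold new and damaged proteins. Of 33 heat shock and chaperonin genes 6 were up-regulated and 6 down-regulated (median -0.13), against 18 and 5 at day 7 (median 0.64), and 23 were lower at day 14 than at day 7, with 1 higher. Under scaling by total counts alone 12 were down-regulated. HSPA8, the constitutive HSP70, had 710.0, 744 and 724 CPM in 2D and 1525, 1479 and 1228 CPM at day 14 (log2 fold change 0.96 ± 0.14 (SE), adjusted p = 0.000287). HSPA1A, the inducible HSP70, had 88.4, 91.6 and 101 CPM in 2D and 33.2, 27.3 and 34.4 CPM at day 14 (log2 fold change -1.57 ± 0.23 (SE), adjusted p = 0.000313). The constitutive and inducible forms moved in opposite directions. HSPD1, the mitochondrial chaperonin, changed by -0.81 (adjusted p = 0.000838) and DNAJB1, an HSP40, by -1.27 (adjusted p = 4.28e-05). Of 54 genes of integrins, focal adhesion and actin 18 were up-regulated and 5 down-regulated (median 0.33). TLN1, talin, which links integrins to actin, had 282, 309.9 and 358 CPM in 2D and 704, 775 and 643 CPM at day 14 (log2 fold change 1.16 ± 0.15 (SE), adjusted p = 0.000119). RHOB, a small GTPase, had 15.5, 13.1 and 11.9 CPM in 2D and 4.08, 3.23 and 4.98 CPM at day 14 (log2 fold change -1.72 ± 0.25 (SE), adjusted p = 0.000313). ACTB changed by 0.36 (adjusted p = 0.0823) and was not called.

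**Figure D4:**
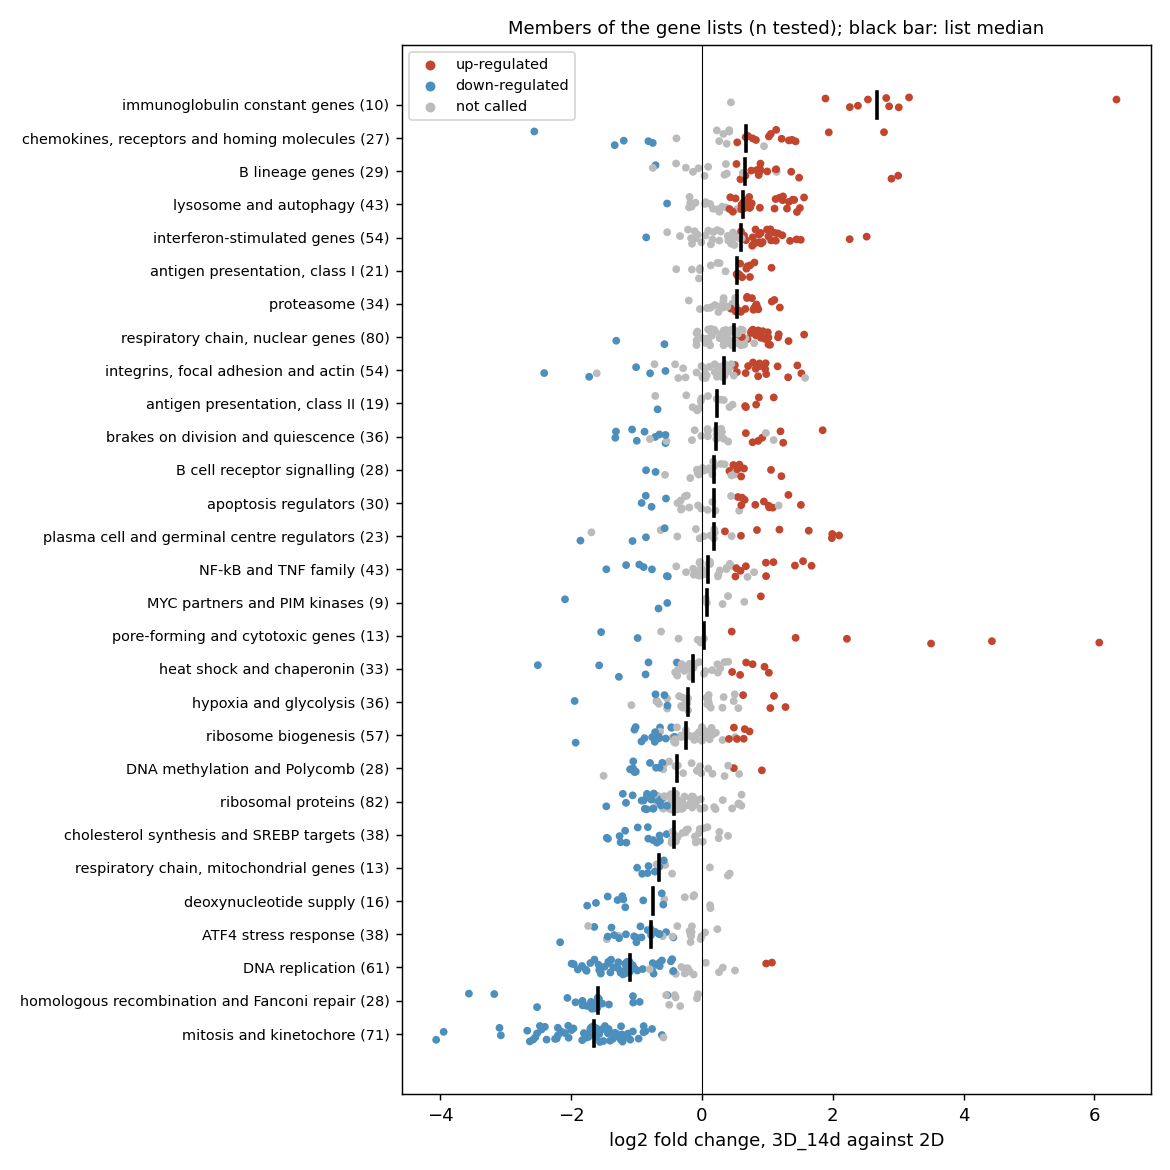
Log2 fold change of 3D_14d against 2D for each tested member of the 29 gene lists, 1 point per gene coloured by its call, with a black bar at the list median and the number tested in brackets. Medians run from -1.64 for mitosis to 2.68 for immunoglobulin constant genes. Lists such as apoptosis and NF-kB hold calls in both directions, with shares down-regulated (13.3% and 16.3%) below the 17.2% of all genes tested.

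Exonic sequence shared with another annotated gene can move counts between them, since the strand setting of the counting was not given: the shared share was 69.9% for XAF1, 66.5% for TYMS, 60.0% for CCL3, 55.9% for CTSD, 42.2% for BCL2L1, 36.7% for MTHFD2, 32.4% for MCM2, 28.2% for BMI1, 25.6% for PAN2, 21.9% for MXD3, 19.3% for CIITA, 19.3% for TNFRSF14, 17.7% for CENPU, 13.0% for KAT2A, 13.0% for DDIT3, 9.91% for PLK1 and 10.3% for EME1.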

How the data were processed

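RNA of MEC1 cells was measured in 9 libraries, of which the 3 of 2D and the 3 of 3D_14d are compared here. Per the labels and the study's methods, the authors prepared libraries from low RNA input with SMART-Seq v4, read 1 end of each fragment, removed adapters and poor bases (Trimmomatic 0.39), mapped to GRCh38 with the GENCODE annotation (STAR 2.5.3a) and counted reads over genes (featureCounts 1.6.4). The deposited values are raw read counts per gene symbol, not normalized; 150 symbols lie on more than 1 chromosome. Strand and multimapping settings were not given in the sources used here. All columns were matched to samples by title.

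A gene was kept when its CPM passed 1 in 3 or more of the 9 libraries (13463 genes). In R 4.3.3, edgeR 4.0.16 was run with TMM scaling, 1 mean per group over all 9 libraries, and the quasi-likelihood test, with Benjamini-Hochberg adjustment over all genes. SE was the absolute log2 fold change divided by the square root of F. Low input and amplification without molecular identifiers mean that reads are not independent molecules. In simulated counts of this comparison 200 of 13100 genes were changed. There edgeR recovered 72% of those changed by 1 and 99% of those changed by 2 on the log2 scale. Of its calls 5% were false, against 15.9% for DESeq2. Each simulated gene had 1 spread for all groups, whereas the real day 14 libraries differed more among themselves. In the data 36.2% of genes were called, so that these rates may not carry over.

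The genes, the 29 lists and the alternatives were chosen with earlier results of these data known. Genes were named by a rule: the 8 smallest p-values per direction among protein-coding genes (a change of at least 1 on the log2 scale, mean CPM of at least 10 in the higher group, no overlap between the groups), listed anchors, the most significant member of each list per direction, the 5 largest gains and losses in mean CPM, genes at or under 3 counts in 1 group, and the 5 genes with the widest spread at day 14; some of these genes are not reported here. Biotypes came from GENCODE v44 by symbol. Promoter sequence came from RefSeq (GRCh38.p14); of the 13463 genes 9441 had a window. Alternatives were DESeq2 1.42.0 (size factors or Wald test), total counts alone, TMM without immunoglobulin, ribosomal protein and mitochondrial genes, filterByExpr, no filter, the 6 libraries alone, the replicate block, a loess length trend removed (span 0.4), both together, a minimum change of 1, and each library left out. Replicate numbers were not used to pair samples in the main fit, because the labels tie none of them to a shared culture or day.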

Additional observations from a re-analysis of the deposited data

Results flagged for a closer look

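Results are given here whose change against 2D differed between day 14 and day 7, tested as the contrast of 3D_14d against 3D_7d in the same edgeR fit. Values are log2 fold changes of day 14 against day 7 with an adjusted p of at most 0.05. With 3 libraries in each group, single libraries were not tested for standing apart.

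Genes of the cell cycle and of DNA were lower at day 14. The change was -1.32 for CDCA5, -0.62 for CDK1, -0.76 for CENPJ, -1.26 for CENPU and -0.82 for DLGAP5. For KAT2A, another of the leading decreases, it was -0.84. In replication and nucleotide supply it was -1.20 for GINS2, -2.0 for CDC45, -1.43 for MCM2, -1.10 for PCNA, -1.62 for RRM2 and -1.01 for TYMS. Repair genes changed by -1.39 for BRCA2, -1.18 for FANCD2 and -1.13 for EME1, and chromatin genes by -0.97 for DNMT1, -0.94 for EZH2 and -0.99 for CBX5.

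Other genes that were lower at day 14 than at day 7 included immune regulators, with -0.92 for CCR7, -0.88 for CIITA, -1.04 for IRF4, -0.51 for MS4A1, -0.72 for PRDM1 and -0.46 for MPEG1. In protein synthesis and folding the values were -0.76 for NCL, -0.54 for NPM1, -0.54 for UBTF, -1.06 for HSPA8, -1.12 for HSPD1 and -1.25 for PSMD1. They were -0.50 for ACTB and -0.47 for ATP5F1B.

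Stress and hypoxia genes were higher at day 14 than at day 7, by 4.16 for ASS1, 3.85 for CHAC1, 1.46 for ATF4, 1.35 for DDIT3, 4.12 for ADM, 2.38 for VEGFA and 1.67 for COX4I2. Interferon-stimulated and antigen presentation genes were higher by 1.55 for ISG15, 1.52 for IFI6, 1.03 for IFIT1, 1.09 for IRF7, 0.60 for BST2, 0.73 for B2M, 0.55 for HLA-DRA and 0.56 for CD74. Chemokine and receptor genes were higher by 1.22 for CCL3, 1.28 for CCL4, 0.90 for FCGR2B, 0.60 for FCER2 and 0.51 for TNFRSF14.

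Cytotoxic genes were higher by 3.25 for GZMH, 1.35 for GNLY and 3.12 for CST7, and genes of antibody production by 0.48 for JCHAIN, 0.84 for MZB1 and 1.49 for IGHV4-34. The remaining values were 2.07 for C20orf204, 0.57 for CPNE5, 0.74 for ITM2C, 0.99 for MXD4, 0.48 for RPL3 and 2.5 for RN7SL1.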

How the results depend on the processing

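Of the 119 genes named with values, 102 were called and none of them changed sign under any of 19 alternatives; 89 kept their call in all of them and 13 lost it in at least 1. Scaling by total counts alone lowered the median of all genes from 0.02 to -0.18 and left 1603 genes up-regulated and 3248 down-regulated, so that 33.0% of calls were increases against 52.5% with TMM; changes under that scaling are relative to this shift. With it CDKN1A changed by -0.103, IRF4 by -0.162 and XBP1 by -0.0733, and the list medians became -0.0164 for plasma cell and germinal centre regulators, -0.114 for the NF-kB and TNF family and -0.0185 for apoptosis regulators. CIITA changed by 0.0719 with the length trend removed and by 0.0407 with the replicate block as well, and IRF4 by -0.0294 with no filter on expression. With 1 library left out CIITA ranged from -0.380 to 0.105, LRIG1 from -0.325 to 0.599 and IRF4 from -0.118 to 0.192. Without 1 library the number up-regulated ranged from 1617 (without 2D replicate 3) to 2862 (without day 14 replicate 1), the number down-regulated from 1694 to 2468, and the number changed from day 7 to day 14 from 2282 (without day 7 replicate 2) to 4357. Where a change of at least 1 on the log2 scale was also required, these numbers were 981, 1191 and 1456. The replicate number as a block gave 2458 up-regulated and 2361 down-regulated genes, and 4626 of the 4875 calls were shared with the fit without it; same-numbered libraries of 2D and 3D_14d correlated at 0.19, 0.11 and 0.09 across genes, each best with its own number, a hint from the data and not from the design. DESeq2's Wald test gave 2891 and 2585. Of 1102 list counts 105 moved by over 1.5 times, most of them for lists with few calls. At this depth replicates differed by more than counting error. The causes were not tested.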
